A study of Mus musculus with 11 samples.

Results

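Of the 48942 features in the deposited table for Dicer knockout and wild-type mouse embryonic stem cells, 1122 carry a noncoding prefix with Mouse Genome Informatics (MGI) as their source. Leaving out the 6 whose symbols start with Mir, Snor or Snhg gave 1116 noncoding MGI transcripts, the members described here, or 2.28% of the features. They have 1109 distinct symbols, and 4 symbols stand for more than 1 feature. A second table, for cMyc knockout and floxed cells, lists 683 of them among 39889 features. The name fits only in part: 516 members matched a gene in RefSeq (GRCm38.p6), 473 by symbol and 43 by synonym, and that annotation calls 399 of them lncRNA, 62 protein-coding and 25 pseudogenes. A further 11 matched as small nuclear RNA, and 600 had no match.

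The study asked how Dicer, microRNAs and Myc bear on long noncoding RNA in embryonic stem cells. The groups were Dcr KO (Dicer knockout lines 1, 3 and 4), Dcr WT (wild type, libraries 1 and 2), cMyc KO (cMyc-/-, 1 library) and cMyc flox (cMyc f/f, 1 library, labelled wild type for cMyc). All 7 libraries came from strain 129S4/SvJae cells grown on gelatin without feeders, were poly(A)-selected and were made with the strand-marking dUTP method. Dcr libraries were paired-end and cMyc libraries single-end, and 4 chromatin libraries of the series were not used here. Each Dcr KO sample is a line of its own, and no label says whether the Dcr WT libraries came from separate cultures. A p-value here therefore weighs the spread of these libraries, which may be technical. Where a Dcr WT library is left out, the p-value holds no spread between wild-type libraries.

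Long noncoding RNAs are transcripts without a long open reading frame. Many are spliced and polyadenylated like mRNAs, and many start near the promoter of a coding gene and run away from it on the other strand. Dicer cuts microRNA precursors into mature microRNAs, and cMyc is a transcription factor that pairs with Max and binds the sequence CACGTG, known as the E-box. MGI names most of the transcripts considered here only provisionally: 740 carry names of RIKEN cDNA clones, 330 are predicted genes (Gm and a number), 25 are named by a sequence accession, 3 end in -ps, and 18 have other gene names.

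The windows below, from RefSeq GRCm38.p6, run from 250 bases before to 50 after an annotated start, 5′ to 3′ on the transcript's strand. They are shown as the sequences behind the CpG and CACGTG counts given with the promoter windows further on. Capitals mark each CG dinucleotide and each CACGTG. The first 4 belong to members lower in Dcr KO that hold CACGTG: Gm5091 (chr17:15240734-15241033, minus strand), 2900093K20Rik (chr2:163419521-163419820, plus strand), 5830433I10Rik (chr17:15705328-15705627, minus strand) and 9330104G04Rik (chr7:16874837-16875136, minus strand). The next, 2400006E01Rik (chr3:41528425-41528724, minus strand), was lower and lacks it. Then come 3 members higher in Dcr KO: Gm10522 (chr1:170983609-170983908, plus strand), 2310015K22Rik (chr1:80207684-80207983, plus strand) and 4930590L20Rik (chr1:140656353-140656652, minus strand). The last, 2410007B07Rik (Platr10 in RefSeq, chr3:75655682-75655981, minus strand), was not called.
Gm5091: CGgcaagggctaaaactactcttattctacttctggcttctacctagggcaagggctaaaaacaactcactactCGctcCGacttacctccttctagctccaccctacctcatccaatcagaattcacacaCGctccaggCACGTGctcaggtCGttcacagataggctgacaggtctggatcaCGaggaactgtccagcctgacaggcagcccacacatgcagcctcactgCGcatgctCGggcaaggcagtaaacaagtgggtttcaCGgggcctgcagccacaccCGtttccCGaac
2900093K20Rik: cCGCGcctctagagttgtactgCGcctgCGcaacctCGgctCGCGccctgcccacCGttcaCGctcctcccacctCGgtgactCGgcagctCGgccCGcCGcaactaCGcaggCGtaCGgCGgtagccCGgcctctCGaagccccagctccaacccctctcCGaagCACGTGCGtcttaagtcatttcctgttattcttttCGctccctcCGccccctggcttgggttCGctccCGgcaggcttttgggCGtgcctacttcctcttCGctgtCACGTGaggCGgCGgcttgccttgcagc
5830433I10Rik: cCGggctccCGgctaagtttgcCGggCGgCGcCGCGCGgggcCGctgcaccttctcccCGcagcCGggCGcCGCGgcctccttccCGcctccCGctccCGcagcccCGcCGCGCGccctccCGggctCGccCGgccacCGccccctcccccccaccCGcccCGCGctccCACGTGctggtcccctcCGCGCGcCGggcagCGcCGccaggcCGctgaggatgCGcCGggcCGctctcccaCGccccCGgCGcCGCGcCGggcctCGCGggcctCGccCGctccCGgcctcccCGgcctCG
9330104G04Rik: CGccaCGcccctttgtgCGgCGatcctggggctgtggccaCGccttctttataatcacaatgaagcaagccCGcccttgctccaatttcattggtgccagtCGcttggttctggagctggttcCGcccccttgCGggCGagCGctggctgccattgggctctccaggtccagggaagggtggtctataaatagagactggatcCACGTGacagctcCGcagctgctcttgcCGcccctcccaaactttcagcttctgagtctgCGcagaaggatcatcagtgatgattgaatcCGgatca
2400006E01Rik: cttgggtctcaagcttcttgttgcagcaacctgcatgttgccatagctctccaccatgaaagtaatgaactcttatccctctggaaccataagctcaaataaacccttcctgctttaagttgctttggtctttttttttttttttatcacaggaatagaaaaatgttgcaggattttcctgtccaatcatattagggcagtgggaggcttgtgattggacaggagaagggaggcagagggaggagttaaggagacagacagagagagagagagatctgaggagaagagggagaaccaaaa
Gm10522: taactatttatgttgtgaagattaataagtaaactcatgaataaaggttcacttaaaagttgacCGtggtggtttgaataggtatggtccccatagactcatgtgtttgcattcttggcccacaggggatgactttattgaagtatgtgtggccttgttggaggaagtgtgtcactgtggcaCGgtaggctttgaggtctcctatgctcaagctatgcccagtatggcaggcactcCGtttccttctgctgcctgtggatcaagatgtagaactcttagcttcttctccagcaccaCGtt
2310015K22Rik: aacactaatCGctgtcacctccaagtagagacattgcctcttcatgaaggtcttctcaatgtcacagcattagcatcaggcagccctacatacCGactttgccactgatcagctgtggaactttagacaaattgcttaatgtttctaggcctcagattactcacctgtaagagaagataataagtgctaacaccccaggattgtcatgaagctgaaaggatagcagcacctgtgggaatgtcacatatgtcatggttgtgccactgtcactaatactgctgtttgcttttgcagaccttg
4930590L20Rik: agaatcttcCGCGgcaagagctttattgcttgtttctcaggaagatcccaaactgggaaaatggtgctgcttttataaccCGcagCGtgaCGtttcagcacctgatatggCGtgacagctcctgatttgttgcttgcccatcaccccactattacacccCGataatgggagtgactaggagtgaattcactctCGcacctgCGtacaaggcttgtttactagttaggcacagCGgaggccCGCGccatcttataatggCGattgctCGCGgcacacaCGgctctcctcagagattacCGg
2410007B07Rik: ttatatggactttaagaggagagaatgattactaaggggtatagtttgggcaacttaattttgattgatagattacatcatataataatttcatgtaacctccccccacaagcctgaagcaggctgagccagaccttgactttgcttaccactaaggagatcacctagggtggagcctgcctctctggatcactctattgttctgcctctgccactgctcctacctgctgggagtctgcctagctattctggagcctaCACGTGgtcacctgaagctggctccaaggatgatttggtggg
The window of 2900093K20Rik holds 32 CpG dinucleotides and CACGTG 2 times, and that of 5830433I10Rik holds 52 CpG dinucleotides and CACGTG once. Gm5091 and 9330104G04Rik have 12 and 16 CpG dinucleotides and CACGTG once each. The lower member 2400006E01Rik has 0 CpG dinucleotides and no CACGTG. Of the higher members, Gm10522 has 4 CpG dinucleotides, 2310015K22Rik 2 and 4930590L20Rik 17, all without CACGTG. The uncalled 2410007B07Rik has 1 CpG dinucleotide, within a CACGTG. The lower windows shown with CACGTG are not typical of their group: 12 of the 18 lower genes with a window lack it. CpG dinucleotides ran from 0 to 52 in windows of lower genes and from 1 to 17 in those of higher ones. These windows were picked after the values had been seen.

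Depth was 247574902, 278006158 and 251808298 recovered reads in Dcr KO lines 1, 3 and 4, against 101815723 and 206721717 in Dcr WT libraries 1 and 2, and 31633011 in cMyc KO, against 24660365 in cMyc flox. Dicer1 checked the Dcr labels: it had 8553, 9793 and 7743 normalised reads in Dcr KO, against 20131 and 18792 in Dcr WT (log2 fold change -1.17, adjusted p = 0.000556, limma). Myc had 12 reads in cMyc KO, against 446 in cMyc flox. In the Dcr libraries Myc had 1253, 1054 and 443 normalised reads in Dcr KO, against 10984 and 7478 in Dcr WT (log2 fold change -3.44, SE 0.39, adjusted p = 0.000289, limma). Of 8 embryonic stem cell markers, 1, Tdgf1, was called, and it was lower in Dcr KO. Of 7 fibroblast markers, 1 was higher and 6 were lower, and their summed level was 1683 to 2241 in Dcr KO, against 11658 to 22577 in Dcr WT, with none at 0 in any library. Of 3 trophoblast markers, 2 were higher and 1 was lower, and their sum was 1653 to 2335 in Dcr KO, against 465 to 587 in Dcr WT. Of 5 primitive endoderm markers, 0 were higher and 2 were lower, with a sum of 2564 to 3509 in Dcr KO, against 3002 to 5530 in Dcr WT. Of 4 neural markers, Pax6 was higher and Nes lower, with a sum of 29933 to 41213 in Dcr KO, against 25495 to 43007 in Dcr WT. The part of Myc and of these marker differences in the results below was not tested.

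Most members were weakly represented. Over the 5 Dcr libraries, 301 had 0 reads, 98 had reads but too few to be tested, and 717 had a normalised read count (reads divided by a factor per library, written "normalised reads" below) of at least 1 in at least 2 libraries and were tested. The median tested member averaged 27.0 normalised reads over the libraries, against 54.1 for all tested features. Members took 0.212%, 0.205% and 0.211% of the table's total in Dcr KO lines 1, 3 and 4, against 0.170% and 0.381% in Dcr WT libraries 1 and 2. From here on, Dcr KO values follow the order of lines 1, 3 and 4, and Dcr WT values that of libraries 1 and 2.

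A few transcripts held most of the members' reads: the 8 largest took 72.9% of the mean total. The first was Rn7sk, the 7SK RNA that holds the elongation factor P-TEFb inactive, with 167013, 163438 and 152214 normalised reads in Dcr KO, against 46067 and 353334 in Dcr WT. Dcr WT held both the lowest and the highest library, so the groups overlapped (log2 fold change 0.33, SE 0.63, adjusted p = 0.715, limma). Its direction changed with the Dcr WT library left out: -1.14 without library 1 and 1.80 without library 2, each against 1 wild-type library. It also changed with the test: the count tests edgeR and DESeq2 both gave -0.31 with all 5 libraries. Rn7sk took 35.9%, 37.5% and 37.4% of the members' total in Dcr KO, against 13.2% and 49.1% in Dcr WT. Of the 14 features of structural RNAs (7SK, RNase P, U1, U2, U3, U5, 5S and 4.5S RNA), which are known to lack a poly(A) tail, 10 were highest in Dcr WT library 2. One of the 14 was called by limma and 0 were called higher (1 higher and 4 lower at an unadjusted p under 0.05); the count tests, edgeR and DESeq2, both gave 0 higher and 3 lower. The shares of all features were 16.9% higher and 14.8% lower by limma, 15.6% and 15.3% by edgeR, and 16.7% and 16.2% by DESeq2, so with 14 features the counts of lower calls lie near the background. The called one was Rpph1, the RNA of RNase P that trims tRNA precursors, with 3334, 3729.7 and 3552 normalised reads in Dcr KO, against 4468 and 9994 in Dcr WT (log2 fold change -0.92, SE 0.28, adjusted p = 0.034, limma). That call was lost without any 1 of Dcr KO lines 1, 3 and 4 or Dcr WT library 2, and the value was -0.34 when the last was left out.

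Several of the other abundant members are annotated as pseudogenes, whose reads can be shared with near-identical copies. Gm4332 had 63860.0, 55497 and 53837 normalised reads in Dcr KO, against 97628 and 101238 in Dcr WT and was lower in Dcr KO (log2 fold change -0.79, SE 0.14, adjusted p = 0.00289, limma). Gm7676, also a pseudogene, had 7395, 8777 and 8229 normalised reads in Dcr KO, against 3746 and 6759.9 in Dcr WT and was higher (log2 fold change 0.69, SE 0.23, adjusted p = 0.0457), a call lost when any Dcr KO line was left out (adjusted p = 0.113, 0.152 and 0.138) or when Dcr WT library 1 was (0.257). Gm10076 had 30139.5, 17309 and 11589.7 normalised reads in Dcr KO, against 11574 and 44179.6 in Dcr WT and Gm9788 had 12865, 13819 and 10946 in Dcr KO, against 15018 and 7389 in Dcr WT. Their groups overlapped, with log2 fold changes of -0.31 and 0.25, not called. Gm8797 reached 2885, 2435 and 2119.7 in Dcr KO, against 702 and 5783 in Dcr WT, so both its lowest and its highest library were wild type. Its log2 fold change of 0.29 became -1.23 when Dcr WT library 1 was left out and 1.81 when library 2 was. With all libraries edgeR and DESeq2 both gave -0.39 for Gm8797. Gm10736 and 2410087M07Rik, abundant members with no RefSeq match, had 29886, 20139 and 15665 normalised reads in Dcr KO, against 13446 and 31018 in Dcr WT and 22626, 17694 and 20650.2 in Dcr KO, against 23218 and 17560.1 in Dcr WT. Their groups overlapped as well.

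The Platr lncRNAs among the members were not called. The clone 2410007B07Rik is Platr10 in RefSeq and C330046G13Rik is Platr7, both named as pluripotency-associated transcripts. Platr10 had 12053, 12413 and 8308 normalised reads in Dcr KO, against 10882 and 12015 in Dcr WT, with overlapping groups (log2 fold change -0.09, SE 0.19, adjusted p = 0.749, limma). Platr7 had 2743, 2661 and 2512 normalised reads in Dcr KO, against 1963 and 2219 in Dcr WT. All 3 Dcr KO lines lay above both Dcr WT libraries, but no call was made (log2 fold change 0.34, SE 0.15, adjusted p = 0.122) except under upper-quartile scaling, which raises all fold changes.

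In Dcr KO against Dcr WT, 60 of the 717 tested members (8.37%) were higher and 73 (10.2%) were lower at an adjusted p under 0.05 (limma, Benjamini-Hochberg over all 42358 tested features). Across all tested features the test called 31.7%, with 16.9% higher and 14.8% lower, so the share of members called lay below that of the table. Lower calls were the larger part among members and the smaller part in the table, a trait not particular to members. Coding RefSeq features also had more lower calls (3415 higher and 3737 lower). Higher calls were the larger part in unannotated loci (2828 and 1357), GenBank features (124 and 104), pseudogenes (275 and 254) and repeats (87 and 35). The median log2 fold change was -0.12 over tested members and 0.08 over all tested features. This balance moves with the scaling: with values scaled to equal upper quartiles of the features above 0 in each library, which raised all log2 fold changes by a median of 0.29, 83 members were higher and 45 lower (24.0% and 9.37% of all features), and the members' median was 0.14 against 0.36 for all features. Low depth was one difference between members and the table. Among features averaging at least 20 normalised reads, 44 members were higher and 63 lower of 410 (26.1%), and 39.1% of all 28226 such features were called. Leaving out Dcr KO line 1 gave 35 higher and 52 lower members (10.4% and 10.3% of all features). Leaving out line 3 gave 29 and 43 (9.03% and 9.18%), and leaving out line 4 gave 32 and 53 (10.5% and 10.2%). With Dcr WT library 2 as the only wild type, the members' median log2 fold change was -0.18 (0.05 over all features). With library 1 as the only wild type, the members' median was -0.13 (0.09 over all features). Such fits hold no spread between wild-type libraries, so their calls are not compared here.

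Members also stood below the other noncoding sources in the same table, a comparison for which no test was made. Of the 4212 other tested noncoding features, 407 were higher and 669 lower in Dcr KO (25.5% called). They came from RefSeq, UCSC, GenBank, VEGA and known lincRNAs, with the 6 MGI features left out by symbol counted among them. The share called was 19.3% in the GenBank features, 23.8% in VEGA, 27.6% in UCSC, 28.5% in noncoding RefSeq and 30.8% in the known lincRNAs. Among members it was 18.5%. In the same order of sources, the median tested feature averaged 31.5, 16.9, 40.3, 109 and 42.7 normalised reads, against 27.0 in members. The part of these levels in the shares was not tested. Within the members, 38 of 401 tested RIKEN clones were higher and 35 lower, and 21 of 273 predicted genes were higher and 35 lower. Of the 62 that RefSeq now calls protein-coding, 44 were tested, with 4 higher and 4 lower.

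**Figure D1:**
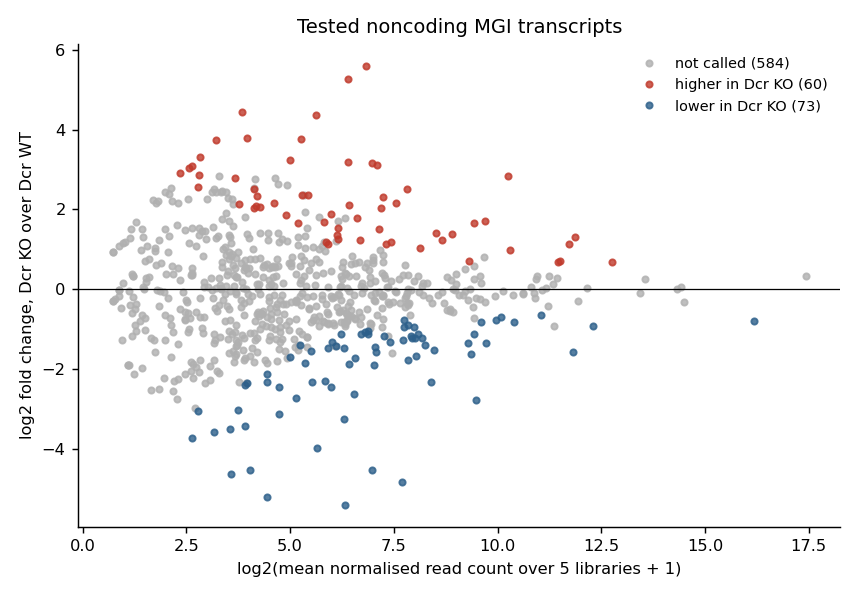
Mean normalised read count over the 5 Dcr libraries, as log2 of the value plus 1 (x axis), against the log2 fold change of Dcr KO over Dcr WT (y axis) for the 717 tested members, 1 point each. Red points are the 60 higher in Dcr KO, blue points the 73 lower and grey points the 584 not called; the grey points spread widest at the left, where reads are few.

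The calls were mostly large. Of the called members, 55 higher and 62 lower ones changed more than 2-fold, and the median log2 fold change was 2.08 in the higher ones and -1.57 in the lower ones. In 6 of the called members Dcr WT held 0 reads in both libraries, and in 2 Dcr KO held 0 in every line, so their size is not known.

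The member with the largest fall was Gm5091, a lncRNA on chromosome 17 whose nearest coding gene is Dll1, a Notch ligand. Gm5091 had 4.44, 1.53 and 3.06 normalised reads in Dcr KO, against 302 and 85.8 in Dcr WT, with every Dcr KO line below both Dcr WT libraries (log2 fold change -5.41, SE 0.69, adjusted p = 0.000575, limma). With only Dcr WT library 2 kept the log2 fold change was -4.51, and with only library 1 kept it was -6.31. Dll1 itself had 1183, 1254 and 678 normalised reads in Dcr KO, against 2171 and 2508 in Dcr WT and was lower too (log2 fold change -1.22, SE 0.26, adjusted p = 0.00756). Gm17704 had 19.5, 11.5 and 13.8 normalised reads in Dcr KO, against 278 and 703 in Dcr WT (log2 fold change -4.83, SE 0.48, adjusted p = 0.000151), and -5.50 and -4.16 were its log2 fold changes without Dcr WT library 1 or 2. Gm2375 had 7.1, 16.8 and 13.8 normalised reads in Dcr KO, against 316 and 275 in Dcr WT (log2 fold change -4.52, SE 0.46, adjusted p = 0.000179). In both, the lowest Dcr WT library held many times the reads of the highest Dcr KO line.

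Gm4400 was at 0 in Dcr KO lines 1 and 3 and at 1.53 in line 4, against 64.4 and 38.3 in Dcr WT. Its 2 reads in Dcr KO and 74 in Dcr WT gave a depth-corrected ratio of 0.0115 (95% interval 0.00137 to 0.0430, exact, counting error only). Gm4400 was called lower (log2 fold change -5.22, SE 0.83, adjusted p = 0.00168, limma). The clone 2410012E07Rik, near the receptor gene Gfra2, had 7.1, 6.87 and 4.59 normalised reads in Dcr KO, against 90.5 and 137 in Dcr WT (log2 fold change -3.99, SE 0.53, adjusted p = 0.000659). On the X chromosome, 4930500G05Rik had 5.32, 7.64 and 3.83 in Dcr KO, against 62.4 and 48.4 in Dcr WT (log2 fold change -3.12, SE 0.59, adjusted p = 0.00393). Both held few reads in every Dcr KO line. Gm10535 was the most abundant of the 8 largest falls, with 236, 186 and 216 normalised reads in Dcr KO, against 1348 and 1555 in Dcr WT (log2 fold change -2.77, SE 0.21, adjusted p = 4.67e-05), and its replicates lay close together in both groups.

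Among the members that were higher in Dcr KO, Gm10522 had the smallest adjusted p of those named here. This lncRNA on chromosome 1, whose nearest coding gene is the inhibitory Fc receptor Fcgr2b, had 1917, 1848 and 1792 normalised reads in Dcr KO, against 237 and 286 in Dcr WT (log2 fold change 2.83, SE 0.18, adjusted p = 2.66e-05, limma). Fcgr2b had 3493, 3889 and 3764 normalised reads in Dcr KO, against 398 and 416 in Dcr WT (log2 fold change 3.19, SE 0.16, adjusted p = 1.18e-05), so the neighbours differed between the groups by similar factors. The clone 2310015K22Rik, which overlaps Fam124b, had 122, 210.0 and 252 normalised reads in Dcr KO, against 28.2 and 13.7 in Dcr WT (log2 fold change 3.18, SE 0.45, adjusted p = 0.000934). Fam124b had 83.4, 87.1 and 89.5 in Dcr KO, against 4.02 and 12.8 in Dcr WT (log2 fold change 3.40, SE 0.52, adjusted p = 0.00146). The sources used here do not say whether strand entered the counting, so reads of this overlapping pair cannot be told apart. Gm10522 was named after its values had been seen.

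The largest rise was that of 2410024F20Rik, with 98.5, 224 and 233 normalised reads in Dcr KO, against 0 and 11.9 in Dcr WT (log2 fold change 5.60, SE 0.93, adjusted p = 0.00207, limma). Since 1 Dcr WT library held none, the size depends on the other: leaving out Dcr WT library 1 gave 3.75, and leaving out library 2 gave 7.44. The clone 4930590L20Rik, which overlaps the potassium channel gene Kcnt2, had 188, 128 and 87.2 in Dcr KO, against 10.1 and 0 in Dcr WT (log2 fold change 5.28, SE 0.88, adjusted p = 0.00222), with 7.01 and 3.54 without Dcr WT library 1 or 2. Kcnt2 was not called (log2 fold change 0.14, SE 0.27, adjusted p = 0.72). The lncRNA 1700104L18Rik, nearest to the oxygen-sensing hydroxylase gene Egln3, had 82.5, 105 and 49.7 in Dcr KO, against 2.01 and 3.65 in Dcr WT (log2 fold change 4.36, SE 0.55, adjusted p = 0.000539). Egln3 was not called either (log2 fold change 0.03, SE 0.22, adjusted p = 0.919).

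Gm17487, Gm16869, Gm8540 and 2010002M09Rik complete the 8 largest rises and have no RefSeq match. Gm17487 had 41.7, 58.0 and 79.6 normalised reads in Dcr KO, against 4.02 and 2.74 in Dcr WT (log2 fold change 3.76, SE 0.54, adjusted p = 0.00106, limma). Gm16869 had 103, 173 and 111 in Dcr KO, against 18.1 and 9.13 in Dcr WT (log2 fold change 3.18, SE 0.45, adjusted p = 0.000932). Gm8540 had 177, 236 and 214 in Dcr KO, against 38.2 and 13.7 in Dcr WT (log2 fold change 3.12, SE 0.44, adjusted p = 0.000935), with 3.83 and 2.41 without Dcr WT library 1 or 2. In each of these, the lowest Dcr KO line lay well above the highest Dcr WT library. The clone 2010002M09Rik had 31.9, 58.8 and 51.3 in Dcr KO, against 12.1 and 0.913 in Dcr WT (log2 fold change 3.23, SE 0.80, adjusted p = 0.0142). Leaving out Dcr WT library 1 or 2 gave 4.61 and 1.84, and leaving out any Dcr KO line lost the call (adjusted p = 0.0552, 0.0688 and 0.0715).

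**Figure D2:**
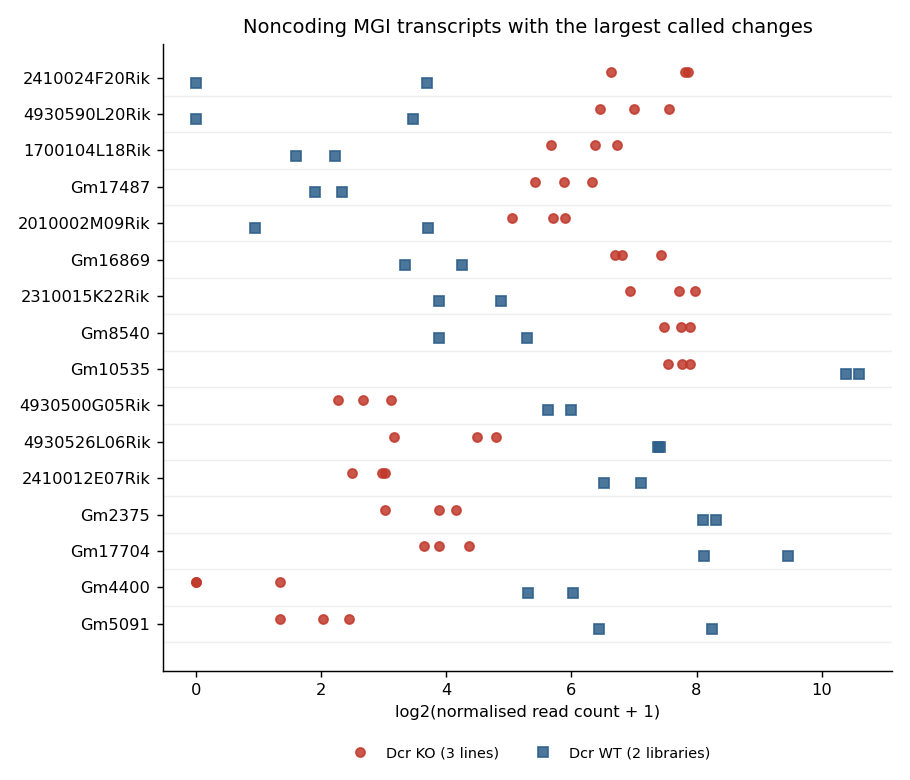
Normalised read counts, as log2 of the value plus 1 (x axis), of the 16 called members with the largest changes, 8 in each direction (rows). Red circles are the 3 Dcr KO lines and blue squares the 2 Dcr WT libraries; the groups do not overlap in any row.

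The Dcr KO lines differed most among themselves in B830012L14Rik, which had 1.77, 196 and 331 normalised reads in Dcr KO, against 145 and 201 in Dcr WT. Line 1 alone was near 0, while lines 3 and 4 lay around the Dcr WT libraries, and the member was not called (log2 fold change -1.60, SE 1.62, adjusted p = 0.477, limma). D830036C21Rik (23.1, 6.11 and 4.59 normalised reads in Dcr KO, against 40.2 and 26.5 in Dcr WT) and Gm5450, a pseudogene of the translation factor gene Eif1 (40.8, 6.87 and 7.65 in Dcr KO, against 48.3 and 15.5 in Dcr WT), were highest in line 1 among the Dcr KO lines. Gm10775 (7.1, 25.2 and 36 in Dcr KO, against 30.2 and 22.8 in Dcr WT) was lowest there. None of the 3 was called.

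The members were next grouped by position relative to coding genes. In the RefSeq annotation 46 matched members start head to head with a coding gene on the other strand, at most 1000 bases from its start or overlapping it by at most 200 bases. Such divergent transcripts share a promoter region with their partner. Across all tested features limma called 16.9% higher and 14.8% lower, the shares beside which the counts of each class stand. Of 40 tested divergent members, 0 were higher and 6 lower in Dcr KO by limma, so the count of lower calls lies near the background. At an unadjusted p under 0.05, 2 of the 40 were higher and 13 lower. For the 40, edgeR called 0 higher and 7 lower (15.6% and 15.3% of all features) and DESeq2 0 and 9 (16.7% and 16.2%). Of the 40, 32 had a log2 fold change under 0, with a median of -0.73. The 77 tested members that overlap a coding gene, some of them divergent members too, held 6 higher and 4 lower calls and a median of 0.01. The 180 matched members in neither class held 13 higher and 20 lower calls and a median of -0.16. The class was formed after values had been seen, and no test was made of the difference between classes.

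Their coding partners leaned the other way as a group, although member and partner log2 fold changes were positively correlated across pairs. Over the 38 pairs with both tested, Pearson's r was 0.53 and Spearman's rho 0.45, a description across genes. Over the 20 whose member overlaps no coding gene they were 0.76 and 0.72. Of 3 pairs with both called, 2 moved the same way and 1 the opposite way. In 38 pairs with both tested, 14 partners were higher and 5 lower in Dcr KO (20.9% and 22.9% of all coding RefSeq features were), the partners' median log2 fold change was 0.26, and the member lay below its partner in 32 pairs. In the 20 pairs whose member overlaps no coding gene, the member lay below in 18. For comparison, members lay below their nearest coding gene in 157 of 226 pairs of any orientation. In those 226 pairs the coding gene also leaned higher, with 70 higher and 30 lower. The median log2 fold change there was 0.15 in coding genes and -0.22 in members, so this lean is not particular to divergent partners. Under upper-quartile scaling 5 divergent members were lower, 28 were under 0 and the member again lay below its partner in 32 of 38 pairs. Leaving out 1 library at a time gave 4 to 6 lower calls and 0 or 1 higher, and the member below its partner in 29 of 35 to 32 of 38 pairs.

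In the pair of 2900093K20Rik and Oser1 the member lay below its partner. The member had 68.3, 51.9 and 63.5 normalised reads in Dcr KO, against 259.5 and 201 in Dcr WT (log2 fold change -1.89, SE 0.32, adjusted p = 0.00219, limma). Oser1 had 2294, 1959.9 and 2086 in Dcr KO, against 1684 and 1840.4 in Dcr WT and was not called (log2 fold change 0.26, SE 0.16, adjusted p = 0.241). The member's groups were far apart while the partner's lay close together. Likewise, 4930500F10Rik had 92.3, 68.0 and 70.4 normalised reads in Dcr KO, against 209 and 211 in Dcr WT (log2 fold change -1.45, SE 0.30, adjusted p = 0.00646), and its partner Alas1, the first enzyme of haem synthesis, had 12830.4, 11069.9 and 10878 in Dcr KO, against 12171 and 10607 in Dcr WT (log2 fold change 0.02, SE 0.15, adjusted p = 0.911).

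With Ankrd11, a chromatin regulator gene, the directions were opposite. The divergent member 2810013P06Rik had 775, 568 and 471 normalised reads in Dcr KO, against 1068 and 1019 in Dcr WT and was lower (log2 fold change -0.82, SE 0.23, adjusted p = 0.026, limma). Ankrd11 had 107355, 114127 and 105939.9 in Dcr KO, against 73324 and 71629.8 in Dcr WT and was higher (log2 fold change 0.59, SE 0.13, adjusted p = 0.00837). The member's call was lost without Dcr KO line 3 or 4 (adjusted p = 0.0946 and 0.0861). In the pair of 9330104G04Rik and Dact3, a Wnt pathway antagonist, both were lower. The member had 191, 162 and 122 normalised reads in Dcr KO, against 437 and 286 in Dcr WT (log2 fold change -1.18, SE 0.30, adjusted p = 0.0164) and Dact3 2085, 2533 and 2756 in Dcr KO, against 6522 and 4307 in Dcr WT (log2 fold change -1.12, SE 0.21, adjusted p = 0.00381). The member's call was lost without Dcr KO line 3 or 4 or Dcr WT library 1 (adjusted p = 0.056, 0.0634 and 0.0583).

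Both other divergent members that were lower are thinly covered or overlap genes. The clone 4930542N06Rik, partner of Lrrc8b, a volume-regulated channel subunit, had 3 reads in Dcr KO and 29 in Dcr WT, and its call was lost without either Dcr WT library (adjusted p = 0.1 and 0.0618, limma). In the Ms4a gene cluster, 4930526L06Rik had 7.99, 21.4 and 26.8 normalised reads in Dcr KO, against 169 and 165 in Dcr WT (log2 fold change -3.24, SE 0.53, adjusted p = 0.00203). The largest positive value in the class was that of Gm10000, partner of the organiser gene Gsc, with 17.7, 10.7 and 42.1 normalised reads in Dcr KO, against 12.1 and 0 in Dcr WT. Its groups overlapped and it was not called (log2 fold change 2.55, SE 1.07, adjusted p = 0.0985).

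**Figure D3:**
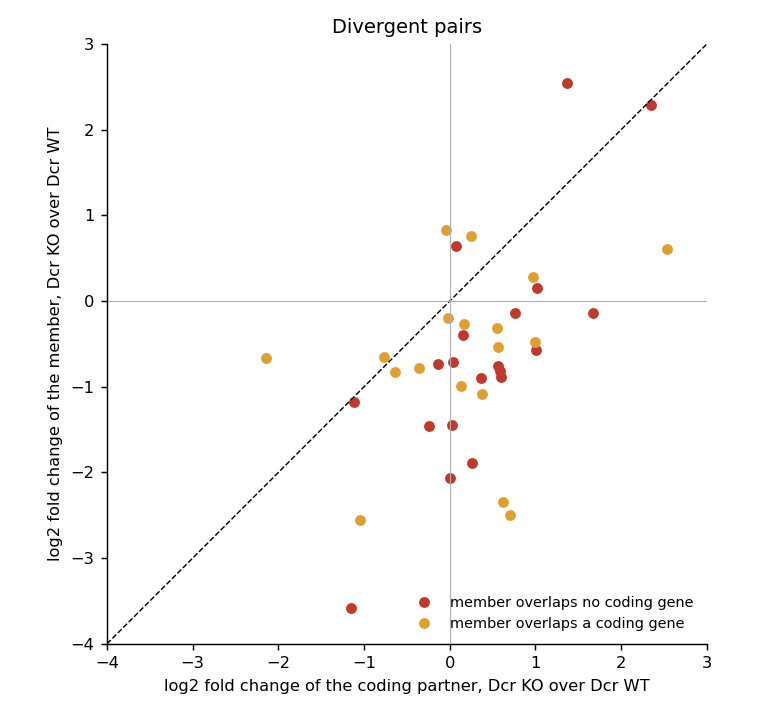
Log2 fold change of Dcr KO over Dcr WT for the coding partner (x axis) and the divergent member (y axis) in the 38 pairs with both tested. Red points are pairs whose member overlaps no coding gene, orange points the others; 32 of the 38 lie below the dashed line, on which both would change equally.

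In 226 pairs of a member and its nearest coding gene with both tested, 42 members were called (15 higher and 27 lower). Of the coding genes 100 were called (70 higher and 30 lower), beside 20.9% higher and 22.9% lower of all coding RefSeq features. The neighbour was called for 18 of the 42 called members (42.9%), against 44.2% over all 226 pairs. Of these 18 pairs, 14 moved the same way, as did 12 of the 15 whose member overlaps no coding gene; no test was made of that count. Beside Dll1, Fcgr2b, Fam124b and Dact3 above, D930019O06Rik and Creg2, which overlap, did so. The member had 419.7, 299 and 281 normalised reads in Dcr KO, against 38.2 and 84.0 in Dcr WT (log2 fold change 2.51, SE 0.37, adjusted p = 0.00119, limma), and Creg2 had a log2 fold change of 2.73. Gm6909 lies nearest to Zscan4d, a zinc finger gene known from 2-cell embryos and a rare embryonic stem cell state. It had 20.4, 58.8 and 88.0 normalised reads in Dcr KO, against 18.1 and 3.65 in Dcr WT (log2 fold change 2.36, SE 0.78, adjusted p = 0.0438), and Zscan4d had 1483, 1711 and 2276 in Dcr KO, against 726 and 154 in Dcr WT (log2 fold change 2.42, SE 0.51, adjusted p = 0.00713). In both genes Dcr WT library 2 was lowest. The call of Gm6909 was lost without Dcr KO line 3, Dcr KO line 4 or Dcr WT library 2 (adjusted p = 0.142, 0.171 and 0.147), with log2 fold changes of 2.95 without Dcr KO line 1 and 3.38 and 1.34 without Dcr WT library 1 or 2.

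Other members were called where their neighbour was not. Gm6988, a transcribed pseudogene nearest to the imprinted thyroid hormone deiodinase gene Dio3, had 2201, 1925 and 1651 normalised reads in Dcr KO, against 3903 and 8278 in Dcr WT (log2 fold change -1.57, SE 0.28, adjusted p = 0.00324, limma). Dio3 had 1789.6, 2018 and 879 in Dcr KO, against 2509 and 1221 in Dcr WT, with overlapping groups (log2 fold change -0.25, SE 0.38, adjusted p = 0.643). Over the 226 pairs the Pearson correlation of the 2 log2 fold changes was 0.31 and Spearman's rho 0.23, a description across genes that share the same 5 libraries.

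In the windows at their starts, lower members held more CpG than higher ones, as medians. Of the members, 350 RefSeq genes have a promoter window in the table used. The median CpG count was 10.5 in the windows of the 18 lower genes, 5 in those of the 12 higher ones and 6 in those of 147 not called. It was 8 over all 27025 genes with a window and 15 over coding genes. Among members averaging at least 20 normalised reads the medians were 14 in 14 lower genes, 6 in 9 higher ones and 10 in 62 not called. Divergent members, whose windows fall in a coding gene's promoter region, had a median of 23. Lower members that are not divergent, 12 genes, had a median of 10.

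CACGTG, which reads the same on both strands, was in the windows of 6 of 18 lower genes (33.3%), 0 of 12 higher ones and 10 of 147 not called (6.80%). It was in 8.09% of all windows and in 8 of the 46 divergent ones (17.4%). The 6 lower genes were Gm5091, 2900093K20Rik, 5830433I10Rik, 9330104G04Rik, 4930542N06Rik and 1110028F18Rik. Of these, 5830433I10Rik overlaps the chromatin remodeller gene Chd1 and had 24.0, 30.6 and 19.9 normalised reads in Dcr KO, against 74.4 and 72.1 in Dcr WT (log2 fold change -1.55, SE 0.43, adjusted p = 0.0222, limma). Leaving out any Dcr KO line lost its call (adjusted p = 0.0637, 0.0504 and 0.0628). Near the E-cadherin gene Cdh1, 1110028F18Rik had 7.1, 4.58 and 2.3 in Dcr KO, against 20.1 and 35.6 in Dcr WT (log2 fold change -2.39, SE 0.70, adjusted p = 0.029), a call lost without Dcr KO line 3 or 4 or Dcr WT library 2 (adjusted p = 0.0774, 0.0739 and 0.148). The other motif searched, TATAAA on either strand, was in 2 of 18 lower, 3 of 12 higher and 14 of 147 uncalled windows, and in 15.7% of all windows. Both motifs and the CpG count were chosen after values had been seen, and no test was made. A match describes these letters and says nothing of binding.

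**Figure D4:**
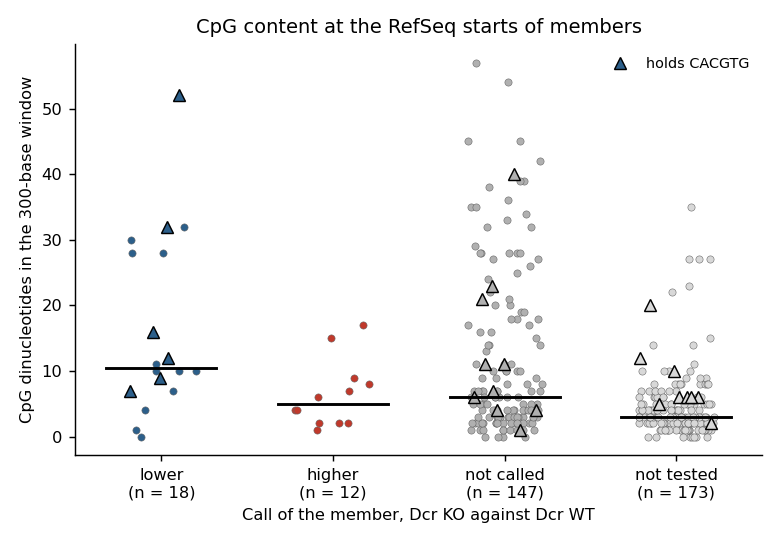
CpG dinucleotides in the 300-base window at the RefSeq start (y axis) of members lower in Dcr KO, higher, not called and not tested (x axis), 1 point per gene. Bars are medians (10.5, 5, 6 and 3) and triangles mark windows with CACGTG, of which 6 are among the lower genes and 0 among the higher.

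In cMyc KO against cMyc flox, with 1 library each, there is no replicate check and no test. Of the 164 members with at least 20 reads over both libraries, 2 were more than 2-fold higher in cMyc KO and 13 more than 2-fold lower. The higher ones were C330002G04Rik, with 16 reads in cMyc KO, against 6 in cMyc flox, and a U2 RNA feature. With other scalings 1 was higher and 21 to 24 were lower. Among all 17631 features at that depth, 1.75% were higher and 2.4% lower. The members' median ratio of cMyc KO over cMyc flox was 0.775, against 1.05 over all features and 1.08 over coding RefSeq features. In repeats the median ratio was 0.732, at a median depth of 62 reads. It was 0.775 in GenBank features (median depth 40 reads), 0.788 in unannotated loci (37 reads) and 0.806 in known lincRNAs (47 reads). Noncoding VEGA features had 0.860 (48 reads), noncoding UCSC features 0.860 (84.5 reads) and noncoding RefSeq features 0.917 (156 reads). Coding UCSC features had 0.889 (131 reads), coding VEGA features 0.912 (84 reads) and pseudogenes 1.01 (536 reads). Median depth was 64.5 reads for members and 595 for all features, and its part in the ratio was not tested. All marker lists had a higher summed level in cMyc KO on the table's own scale. The fibroblast sum was 7532 in cMyc KO, against 4489 in cMyc flox, although Thy1 had a ratio of 0.83 (95% interval 0.65 to 1.05). Sums were 60457 against 50051 for stem cell markers and 4848 against 3489 for neural ones. They were 395 against 340 for primitive endoderm and 189 against 167 for trophoblast markers. The part of these marker differences was not tested. The exact 95% interval, which covers counting error only, lay below 1 for 39 members, above 1 for 9 and covered 1 for 116.

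Among members with at least 50 reads, 9330174C13Rik had the lowest ratio, with 22 reads in cMyc KO, against 65 in cMyc flox, a ratio of 0.291 (95% interval 0.171 to 0.478). Gm3952 followed at 0.363 (95% interval 0.32 to 0.412), from 354 reads in cMyc KO, against 838 in cMyc flox, and was the deepest of the 13. Gm6020, a pseudogene, had a ratio of 0.489 (95% interval 0.397 to 0.601). For 3021401N23Rik and BC099486 the ratios were 0.511 (95% interval 0.287 to 0.89) and 0.516 (95% interval 0.331 to 0.793). All 5 intervals lie below 1. The highest ratios at that depth were those of the pseudogenes Gm10076, at 1.62 (95% interval 1.57 to 1.67), Gm7676, at 1.55 (95% interval 1.25 to 1.94), Gm9788, at 1.45 (95% interval 1.29 to 1.62), and Gm8797, at 1.43 (95% interval 1.35 to 1.51), and of C330019O22Rik, at 1.45 (95% interval 0.92 to 2.32). The interval of the last covers 1, and none of the 5 reached 2-fold.

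Of the members called in Dcr KO, 36 lower and 14 higher ones had at least 20 cMyc reads. In cMyc KO, 25 of the 36 and 12 of the 14 had a ratio under 1, with medians of 0.758 and 0.696. Over all 164 members, 117 (71.3%) had one. Of the 50 called members, 2 were past 2-fold in cMyc KO, against 15 of all 164 (9.15%). Gm3952 was past 2-fold the same way as in Dcr KO. It had 929, 952 and 730.0 normalised reads in Dcr KO, against 1390.1 and 1413 in Dcr WT (log2 fold change -0.70, SE 0.19, adjusted p = 0.0205, limma), a call lost when any Dcr KO line was left out (adjusted p = 0.0539, 0.0537 and 0.0622). The clone 9230108I15Rik went the opposite way: it had 954, 1200.0 and 1283 in Dcr KO, against 342 and 348 in Dcr WT (log2 fold change 1.72, SE 0.20, adjusted p = 0.000361), and 7 reads in cMyc KO, against 28 in cMyc flox, a ratio of 0.215 (95% interval 0.0793 to 0.504). Over the 164 members with both values the Pearson correlation was -0.15 and Spearman's rho -0.09, a description across genes. The tables were normalised separately.

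Both directions in Dcr KO held members with cMyc ratios under 1. Gm17635 was higher in Dcr KO, with 4095, 6071 and 4635 normalised reads in Dcr KO, against 1939 and 2026 in Dcr WT (log2 fold change 1.30, SE 0.19, adjusted p = 0.00105, limma), and had a cMyc ratio of 0.541 (95% interval 0.398 to 0.731). So was 9330185C12Rik, with 3686, 4464 and 4767 in Dcr KO, against 1911 and 2026 in Dcr WT (log2 fold change 1.12, SE 0.16, adjusted p = 0.00116) and a ratio of 0.584 (95% interval 0.454 to 0.748). Lower in Dcr KO were Gm17210, with 385, 397 and 373 in Dcr KO, against 841 and 1142 in Dcr WT (log2 fold change -1.35, SE 0.21, adjusted p = 0.00154) and a cMyc ratio of 0.537 (95% interval 0.353 to 0.81), and G930009F23Rik, with 201, 175 and 227 in Dcr KO, against 523 and 642 in Dcr WT (log2 fold change -1.53, SE 0.24, adjusted p = 0.00152) and a ratio of 0.537 (95% interval 0.329 to 0.866). These 4 were picked after values had been seen. Gm5091, the member with the largest fall in Dcr KO by limma, had 27 reads in cMyc KO, against 20 in cMyc flox. Its ratio was 1.16 (95% interval 0.627 to 2.18), and the interval covers 1.

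**Figure D5:**
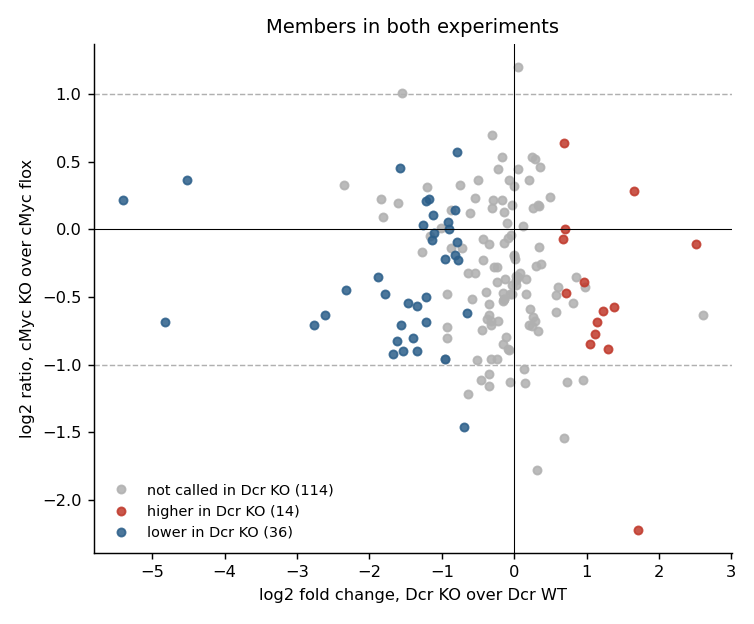
Log2 fold change of Dcr KO over Dcr WT (x axis) and log2 ratio of cMyc KO over cMyc flox (y axis) for the 164 members with at least 20 cMyc reads. Red points are the 14 higher in Dcr KO, blue points the 36 lower and grey points those not called; dashed lines mark 2-fold, and most points of each colour lie below 0 on the y axis.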

How the data were processed

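The authors deposited a normalised signal per feature, which the values show to be read counts divided by 1 factor per library. Values were whole multiples of 1 read, within 0.01 read, for 100% of the Dcr entries and 99.9975% of the cMyc entries, so reads could be recovered. The submitters' processing notes name TopHat, Bowtie, DESeq and mm9 without roles; not given in the sources used here are the counter, its use of strand and the gene models. Depth was 101815723 to 278006158 reads in the Dcr libraries and 24660365 to 31633011 in the cMyc libraries.

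The Dcr comparison used limma 3.58.1 with a mean trend, in R 4.3.3, on log2(value + 1). Features had to reach 1 in 2 or more libraries, the adjusted p (Benjamini-Hochberg, over 42358 features) had to be under 0.05, and fold changes on this scale understate those of low features. The count tests edgeR 4.0.16 and DESeq2 1.42.0, run on recovered reads, called 6594 features higher and 6466 lower, and 7067 higher and 6859 lower. cMyc ratios have exact conditional binomial 95% intervals for counting error only. Alternatives were other pseudocounts, filters, scalings and tests, leaving out each library, and for cMyc other scalings, a minimum of 50 reads and a 1.5-fold limit. The procedure was tested on simulated data. Positions and neighbours come from RefSeq GRCm38.p6, matched by symbol or synonym; for members without a match none is given.

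The members and lists were chosen with earlier results of these data known. Named members were the 8 largest called changes in each direction averaging at least 20, the 8 with the most reads, the 5 largest cMyc ratios in each direction with at least 50 reads, members changed the same way in both experiments, the 4 with the widest spread among Dcr KO lines, and Rpph1, the only member on a list of well-known noncoding RNAs. All other named members, the divergent class, the windows, motifs and CpG counts were chosen after values had been seen.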

Additional observations from a re-analysis of the deposited data

How the results depend on the processing

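The balance of higher and lower calls depends on the scaling. Under the planned upper-quartile scaling (features above 0 in each library) 83 members were higher and 45 lower, and 64.8% of the members' calls were higher in place of 45.1%; over all features the share was 71.9% in place of 53.3%. A version over features above 0 in any library, added after those calls had been seen, gave 65 and 70. Without a filter 35 were higher and 58 lower, beside 4169 and 3967 of all features. Leaving out 1 library gave 29 to 75 higher and 43 to 71 lower, lowest without Dcr KO line 3. The other alternatives gave 49 to 60 higher and 60 to 90 lower. Over all features they gave 4243 to 7561 higher and 3832 to 6957 lower, beside 7171 and 6273 in the main comparison. Leaving out 1 Dcr KO line gave 3782 to 4386 higher and 3847 to 4335 lower over all features. The cause of these differences was not tested.

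For the cMyc libraries, the numbers more than 2-fold higher and lower were 1 and 24 with total counts, 1 and 21 without ribosomal RNA, 1 and 21 with scaling on coding features, and 0 and 3 at 50 reads or more; past 1.5-fold they were 4 and 54. These scalings lowered log2 ratios by 0.10 to 0.14. Of 36 named and called members, 14 lost their call under some alternative and none reversed. Besides the libraries named with each result, calls were lost under upper-quartile scaling for 4 (2810013P06Rik, 5830433I10Rik, Gm3952 and Rpph1), without a filter for 11, including 2410024F20Rik and 4930590L20Rik, without a trend for 9, including Gm4332 and Gm6988, with scaling on coding features for Rpph1, and with a pseudocount of 0.5 or total counts for Gm6909 and Gm7676. Among named members not called, Rn7sk and Gm8797 changed sign with the Dcr WT library left out, and also by edgeR and by DESeq2. Leaving out 1 library gave log2 fold changes of -1.14 to 1.80 for Rn7sk and -1.23 to 1.81 for Gm8797. Both were lowest without Dcr WT library 1 and highest without library 2. B830012L14Rik also changed sign, from -1.60 to 0.57 without Dcr KO line 1 and to 0.03 by edgeR and by DESeq2. Other sign changes of uncalled members are not listed. No paired analysis was possible because the Dcr KO lines and Dcr WT libraries share only 1 replicate number and each cMyc genotype has 1 library. Depth limits members of few reads: 301 had none in the Dcr libraries, which does not show absence.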
